A study of Homo sapiens with 21 samples.

Results

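MHC class I genes were followed through 21 RNA-seq libraries from K562 cells. K562 is an established cell line from chronic myeloid leukaemia with erythroid features, known for low MHC class I. The 9 genes were HLA-B, HLA-C, HLA-E, B2M, TAP1, TAP2, TAPBP, NLRC5 and PSMB8. They were chosen by name and found by Ensembl identifier among 61541 genes of a gene count table and among 57300 gene names of the exon bin files. Every gene had an identifier of its own in both, except that the bin files joined TAP2 with HLA-DOB and another overlapping gene.

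The labels put the libraries in 7 groups of 3, all of K562 cells grown with fetal bovine serum and with no genotype given other than what was overexpressed. The first experiment held cells with an empty vector, cells labelled MYB overexpression and cells labelled NMYB overexpression. Per the design text these were MYB, a transcription factor of blood progenitors, and a MYB that lacks its N terminus. In the other 2 experiments, labelled 34kn and 34kp, an enhancer RNA was overexpressed and set against controls of its own. Enhancer RNAs are transcribed from active enhancers, and this pair comes from the enhancer 34 kb upstream of MYB. Vectors, promoters and clones of the overexpressing cells are not given in the sources used here. Nothing says that replicates came from cultures kept apart, and the p-values then measure only the spread between these libraries, which may be technical.

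An MHC class I molecule is a heavy chain (such as HLA-B or HLA-C, or the less variable HLA-E) bound to beta-2-microglobulin, the product of B2M, and to a short peptide. Peptides are cut by the proteasome, in which PSMB8 and PSMB9 can replace constitutive catalytic subunits to make the immunoproteasome. The TAP1 and TAP2 proteins pump the peptides into the endoplasmic reticulum, where tapasin, the product of TAPBP, holds the empty class I molecule next to the pump. NLRC5 is the transactivator of class I promoters, and interferon gamma raises most of these genes, in part through IRF1. Cytotoxic T cells read the peptides, and natural killer cells attack cells that lack class I, for which K562 is a standard target.

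In GENCODE 29 on GRCh38, 7 of the genes lie in the MHC on chromosome 6. These are HLA-E (chr6:30489467-30494205, plus strand), HLA-C (chr6:31268749-31272130, minus), TAP2 (chr6:32821833-32838780, minus), PSMB8 (chr6:32840717-32844703, minus), TAP1 (chr6:32845209-32853978, minus), TAPBP (chr6:33299694-33314387, minus) and HLA-B (chr6:31269491-31357188, minus). The span that this release gives for HLA-B runs over HLA-C. B2M lies on chr15:44711487-44718877 and NLRC5 on chr16:56989485-57083531, both on the plus strand.

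PSMB8, TAP1 and PSMB9 are neighbours, and TAP1 and PSMB9 are transcribed away from each other from RefSeq start sites 487 bases apart. The sequences below are the 250 bases before the first RefSeq start site (GRCh38.p14), 5′ to 3′ on the strand of the gene. They are shown because these 3 genes had the highest fold changes among the class I and immunoproteasome genes that passed the filter on low counts in the first experiment, with B2M beside them as a gene that did not pass the test there. Capitals mark GAAA, any 2 bases and GAAA again on either strand, a core of the interferon-stimulated response element that IRF factors bind. The windows are chr6:32853705-32853954 (minus) for TAP1, chr6:32853942-32854191 (plus) for PSMB9, chr6:32844680-32844929 (minus) for PSMB8 and chr15:44711267-44711516 (plus) for B2M.
TAP1: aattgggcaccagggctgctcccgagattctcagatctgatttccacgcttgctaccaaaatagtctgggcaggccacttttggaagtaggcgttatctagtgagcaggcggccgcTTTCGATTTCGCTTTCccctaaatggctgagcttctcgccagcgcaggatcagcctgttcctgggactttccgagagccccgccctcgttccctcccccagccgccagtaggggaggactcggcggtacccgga
PSMB9: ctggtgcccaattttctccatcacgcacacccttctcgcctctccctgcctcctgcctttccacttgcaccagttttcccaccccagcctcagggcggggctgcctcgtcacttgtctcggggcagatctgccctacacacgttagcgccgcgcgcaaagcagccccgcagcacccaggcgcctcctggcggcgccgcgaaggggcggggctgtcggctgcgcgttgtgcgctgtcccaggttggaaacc
PSMB8: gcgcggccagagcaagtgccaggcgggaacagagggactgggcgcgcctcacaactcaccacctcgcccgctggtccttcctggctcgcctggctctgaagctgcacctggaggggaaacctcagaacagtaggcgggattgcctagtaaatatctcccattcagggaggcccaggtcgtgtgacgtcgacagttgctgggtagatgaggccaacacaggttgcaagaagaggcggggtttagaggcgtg
B2M: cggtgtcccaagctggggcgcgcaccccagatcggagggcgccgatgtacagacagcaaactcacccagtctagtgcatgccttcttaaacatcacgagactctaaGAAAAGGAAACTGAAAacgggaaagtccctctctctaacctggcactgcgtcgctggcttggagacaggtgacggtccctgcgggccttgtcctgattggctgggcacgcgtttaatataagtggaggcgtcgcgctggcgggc

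TAP1 and B2M each held 2 overlapping matches, at −134 to −119 and −144 to −129 from the start site. The PSMB8 and PSMB9 windows held none. The TAP1 matches lie between the TAP1 and PSMB9 start sites, farther from that of PSMB9 than its window reaches. Of 7 class I genes with a RefSeq window, 4 held a match, namely TAP1, TAP2, TAPBP and B2M. Of all 35116 windows 3.02% held a match. TAP1 and PSMB8 had 2 windows each, and those not shown held no match, so a share of genes stands beside a share of windows. HLA-B and HLA-C held none, and HLA-E and NLRC5 were not matched. The NF-kB pattern of GGG, any 2 bases, TT, any base and CC was found in the windows of TAP1, B2M, TAPBP and HLA-B, and in 5.07% of all windows. A match is a description of the sequence and not evidence of binding.

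Gene counts summed to between 16552237 and 24462819 per library in the first experiment, and bin counts to between 36563252 and 41243796 in the other 2. Levels are CPM, counts relative to the library total after scaling by edgeR's TMM factors, and a read that spans several exon bins can add to each, so bin levels were not compared with gene levels. The erythroid markers fixed for K562 were all at 1 CPM or more in every group, and they summed to 2103 to 2137 CPM with empty vector, 1859 to 1905 CPM in MYB libraries and 1917 to 1929 CPM in NMYB libraries. The MYB transcript itself stood at 210.3 to 218.9 CPM with empty vector, 221.9 to 230.8 CPM in libraries labelled MYB (1.05-fold, 95% interval 0.994 to 1.12) and 201.8 to 217.2 CPM in libraries labelled NMYB (0.983-fold, 0.926 to 1.04). It was therefore not detectably raised where the label names it, and every direction below rests on the labels. MYB and NMYB stand below for the libraries so labelled. The enhancer RNAs were not analysed here.

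**Figure D1:**
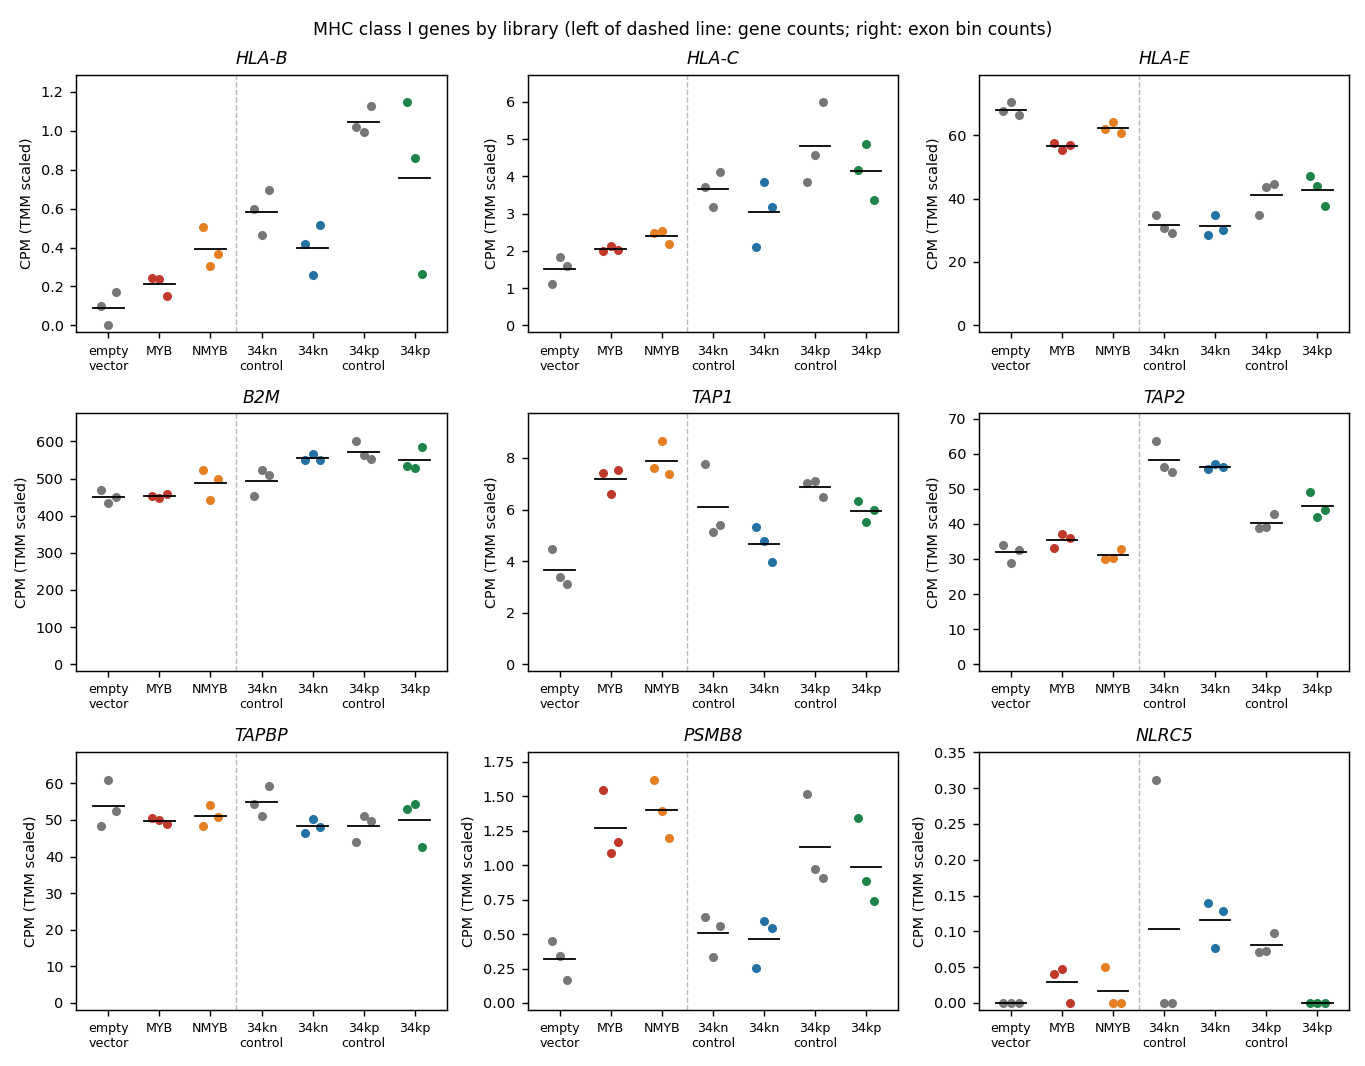
Level of each of the 9 genes in every library (points, TMM-scaled CPM, linear axes that include 0) with group means (bars), gene counts left of the dashed line and exon bin counts right of it. TAP1 and PSMB8 libraries labelled MYB and NMYB all lie above the empty-vector libraries, and B2M spans 435 to 522 CPM over those 3 groups.

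K562 held ample light chain and little classical heavy chain transcript. Per kilobase of annotated exon, with empty vector, B2M stood at 74.3 ± 2.81 CPM (mean ± SD, n = 3), HLA-E at 22.9 ± 0.693 and TAPBP at 10.7 ± 1.27. TAP2 followed at 4.99 ± 0.415 CPM per kb, TAP1 at 0.759 ± 0.148, HLA-C at 0.600 ± 0.148, PSMB8 at 0.107 ± 0.0473 and HLA-B at 0.0295 ± 0.0279. NLRC5 had 0 counts in all 3 empty-vector libraries, where a count of 0 allows up to 0.172 CPM in the shallowest. TAP1 and HLA-C overlapped between libraries and could not be ordered with empty vector. PSMB8 and HLA-B, with 3 to 9 and 0 to 3 counts, were just apart by this length and overlapped by that of the longest transcript. HLA-B and NLRC5 overlapped at 0 counts. The other neighbours did not overlap. The order of the 9 means was the same in MYB and NMYB libraries, and also with the length of the longest transcript in place of all exons. The other heavy chains were near the limit of counting. HLA-B had 0 to 3 counts with empty vector, HLA-F 1 to 3 and HLA-G 0. HLA genes are near-identical in sequence and vary between people, so how reads were split among them is uncertain. Whether the aligned genome held the alternate sequences of the MHC, which would make reads of chromosome 6 genes align several times, is not given in the sources used here, so levels against B2M may be too low.

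**Figure D2:**
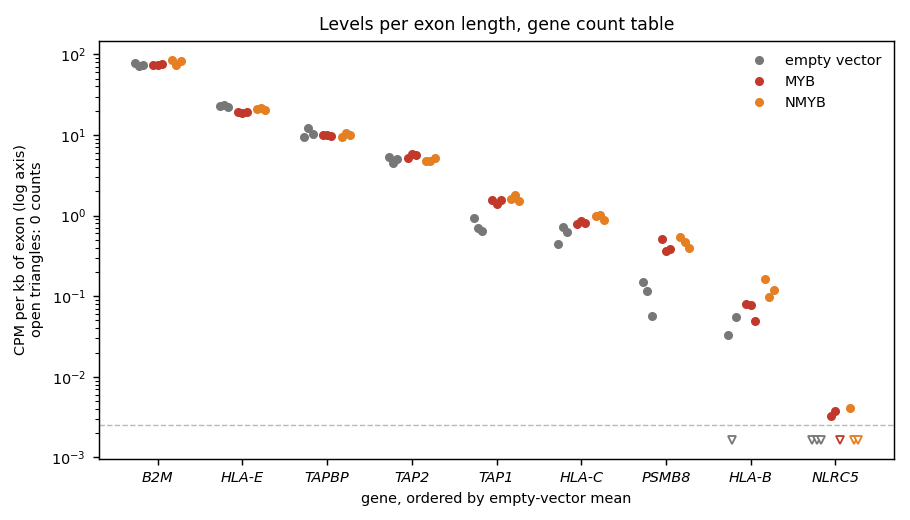
Level per kilobase of exon (log axis, CPM per kb) of the 9 genes in the gene count table, ordered by the empty-vector mean, with 1 point per library and open triangles for libraries with 0 counts. B2M lies highest at 74.3 CPM per kb with empty vector, and NLRC5 has counts in only 3 of the 9 libraries.

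The comparison of libraries labelled MYB with empty vector asks what more MYB does to these genes. TAP1 and PSMB8 rose, HLA-E fell, and B2M, TAP2, TAPBP and HLA-C did not pass the test. HLA-B and NLRC5 had too few counts to be tested. edgeR's quasi-likelihood test called 22.3% of 15823 genes at an adjusted p below 0.05 in this comparison, 9.62% higher and 12.7% lower, beside 2 genes higher and 1 lower of the 7 tested here. Of the 2 higher, PSMB8 entered the test only through the groups where it was high, as given below. The median log2 fold change of these 7 was 0.15, against 0.01 over all genes tested.

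TAP1, the transporter subunit, was at 4.45, 3.38 and 3.11 CPM with empty vector and at 7.40, 6.60 and 7.55 CPM in libraries labelled MYB. The groups were well apart, and TAP1 rose 1.95-fold (95% interval 1.62 to 2.35, log2 fold change 0.97, SE 0.137, adjusted p = 4.15e-05). PSMB8, the inducible proteasome subunit, had 9, 6 and 3 counts with empty vector (0.450, 0.344 and 0.170 CPM) and 38, 23 and 23 counts with MYB (1.55, 1.08 and 1.17 CPM). It rose 3.86-fold (2.43 to 6.14, log2 fold change 1.95, SE 0.341, adjusted p = 3.64e-04), from a level near the limit of counting. PSMB8 entered the test only through the MYB and NMYB libraries: 0 of 3 empty-vector libraries reached the 0.515 CPM at which a library counted towards the filter, so a test of it was bound to find it higher there. PSMB9, its partner in the immunoproteasome, went from 9, 4 and 5 counts to 39, 26 and 29 (log2 fold change 2.11, SE 0.31, adjusted p = 5.96e-05) and entered the same way.

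HLA-E, which presents leader peptides of other class I chains to the NKG2A receptor of natural killer cells, was at 67.6, 70.4 and 66.5 CPM with empty vector and 57.7, 55.5 and 56.9 CPM with MYB. It fell to 0.832 of its control level (0.775 to 0.893, log2 fold change −0.27, SE 0.0518, adjusted p = 0.00103), and the 2 groups were well apart. The calls of TAP1 and HLA-E held in every alternative fit of this comparison. HLA-C was at 1.10, 1.83 and 1.58 CPM against 1.99, 2.12 and 2.03 CPM. Its groups did not overlap, yet the difference did not pass (log2 fold change 0.46, SE 0.205, adjusted p = 0.121).

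B2M, the light chain, was at 469, 435 and 450 CPM with empty vector and 453, 448 and 458 CPM with MYB, a ratio of 1.00 (0.937 to 1.07, adjusted p = 0.961). This was the member measured with most counts, 7599 to 11129 per library. TAP2 ranged from 28.9 to 34.1 CPM and from 33.0 to 37.2 CPM, and TAPBP from 48.3 to 60.9 CPM and from 48.8 to 50.4 CPM. Neither passed (log2 fold changes 0.15 and −0.11, adjusted p = 0.152 and 0.286). HLA-B had 2, 0 and 3 counts against 6, 5 and 3, and NLRC5 0 in each against 1, 1 and 0, too few for a fold change.

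Libraries labelled NMYB, compared with the same empty-vector libraries, asked the question for MYB without its N terminus. TAP1, PSMB8 and HLA-C rose, PSMB8 with the limit on its entry given above, and no member fell. In this comparison 24.9% of 15823 genes were called, 12.6% higher and 12.4% lower, beside 3 higher of the 7 members tested (median log2 fold change 0.11, against 0.01 over all genes tested). Since the controls are shared, its values and those for MYB are not independent of each other.

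TAP1 was at 7.62, 8.65 and 7.39 CPM in libraries labelled NMYB and rose 2.14-fold over empty vector (1.77 to 2.58, log2 fold change 1.10, SE 0.138, adjusted p = 1.24e-05). PSMB8 had 32, 23 and 23 counts (1.62, 1.39 and 1.20 CPM) and rose 4.24-fold (2.66 to 6.76, log2 fold change 2.08, SE 0.343, adjusted p = 2.05e-04), with the same limit on how it entered the test. PSMB9 had 25, 21 and 21 counts (log2 fold change 1.87, SE 0.328, adjusted p = 3.78e-04). In each of these 3 genes every NMYB library lay above every empty-vector library.

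HLA-C, a classical heavy chain and ligand of killer cell receptors, was at 2.47, 2.54 and 2.19 CPM and rose 1.61-fold (1.22 to 2.12, log2 fold change 0.68, SE 0.204, adjusted p = 0.0196). This call did not hold in every alternative fit. It was lost without empty vector 1, the lowest control (log2 fold change 0.49, adjusted p = 0.128), without NMYB 1 (0.65, adjusted p = 0.0597), and with DESeq2 (0.67, adjusted p = 0.0927). HLA-B had 10, 5 and 7 counts against 2, 0 and 3, and was tested only when no filter on low counts was used (log2 fold change 2.02, adjusted p = 0.0416).

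HLA-E was at 61.9, 64.3 and 60.8 CPM, below every empty-vector library, with a log2 fold change of −0.13 that did not pass (SE 0.052, adjusted p = 0.0776) but did without NMYB 2 (adjusted p = 0.0363). B2M was at 522, 442 and 498 CPM (log2 fold change 0.11, SE 0.0506, adjusted p = 0.125). NMYB 2 was the lowest of these, and without it B2M was called at a log2 fold change of 0.17 (adjusted p = 0.00113). TAP2 ranged from 29.99 to 32.9 CPM and TAPBP from 48.3 to 54.1 CPM, with log2 fold changes of −0.04 and −0.08 (adjusted p = 0.750 and 0.489). NLRC5 had 1, 0 and 0 counts.

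**Figure D3:**
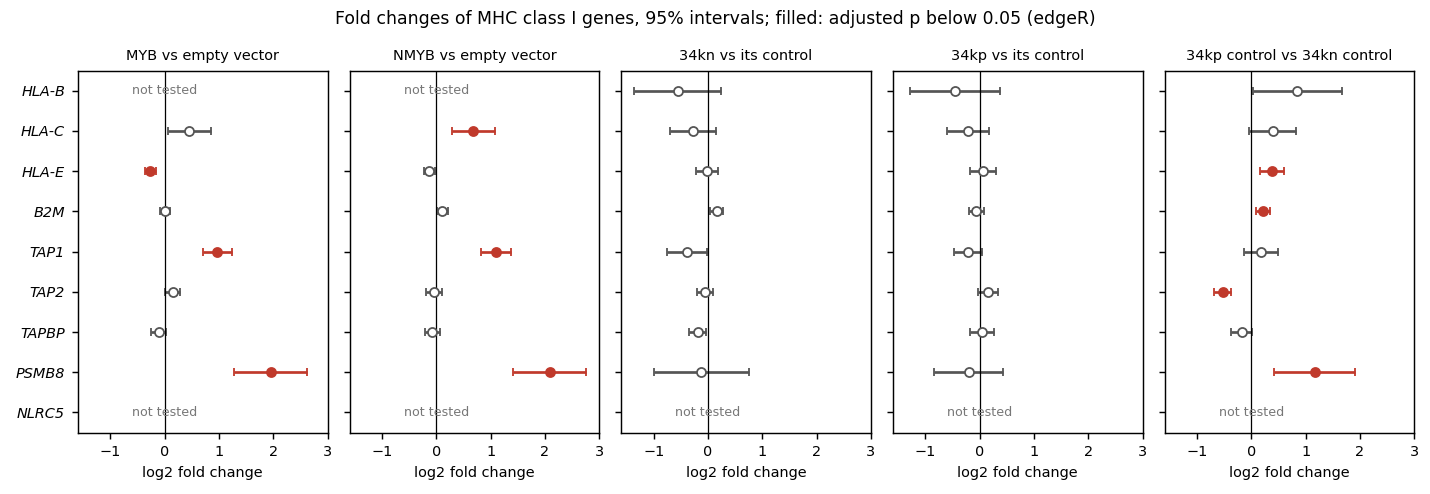
Log2 fold change of each gene in 5 comparisons (edgeR, points with bars for the 95% interval, filled where the adjusted p was below 0.05). TAP1 lies at 0.97 and 1.10 and PSMB8 at 1.95 and 2.08 in the MYB and NMYB panels, and no gene is filled in the 34kn and 34kp panels.

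The libraries labelled NMYB and MYB were also compared directly. None of the 7 members tested was called by edgeR, where 1.14% of 15823 genes were, and 2 had an unadjusted p below 0.05, namely HLA-E and TAP2, named here after their values were seen. DESeq2 called 0 of the 4 members to which it gave an adjusted p. Of all genes 0.518% were called higher and 0.626% lower with NMYB. The ratio of NMYB to MYB was 1.09 for TAP1 (95% interval 0.93 to 1.29), 1.10 for PSMB8 (0.784 to 1.54), 1.17 for HLA-C (0.910 to 1.51) and 1.08 for B2M (1.00 to 1.15). HLA-E stood 1.10-fold higher (1.02 to 1.18, adjusted p = 0.181) and TAP2 at 0.878 of its MYB level (0.796 to 0.968, adjusted p = 0.182), and neither passed over all genes. TAPBP had a log2 fold change of 0.04 (adjusted p = 0.836), and HLA-B and NLRC5 were not tested. Without NMYB 2, B2M was called higher (log2 fold change 0.15, adjusted p = 0.0349).

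Of 96 other genes of the pathway, 77 could be tested in the first experiment, and edgeR called 17 of them with MYB and 29 with NMYB. Over all genes 22.3% and 24.9% were called, so the MYB count is near that share. Calls of proteasome genes were all higher, and those of genes of killing and inhibition all lower. In the immunoproteasome and PA28 list, 3 of 5 rose with MYB and 0 fell, namely PSMB9, PSME2 (0.33, adjusted p = 7.57e-05) and PSME3 (0.16, adjusted p = 0.0140). With NMYB 3 of 5 rose, namely PSMB9, PSME2 (0.34, adjusted p = 6.48e-05) and PSME1 (0.21, adjusted p = 0.0202). PSMB9 is counted in both although it entered the test only through the groups where it was high. PSME1 and PSME2 encode the PA28 activator that opens the proteasome. The PSME3 call was lost without empty vector 1 or MYB 3 (adjusted p up to 0.0575 over the alternatives), and the PSME1 call in 5 alternatives, among them empty vector 1, empty vector 3 or NMYB 1 left out (adjusted p up to 0.113).

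Over all genes 9.62% were called higher with MYB and 12.6% with NMYB. The 14 constitutive 20S subunits rose in 4 cases with MYB and in 10 with NMYB, and none fell (medians 0.11 and 0.17, against 0.01 over all genes in each). The largest were PSMA2 (0.80 and 0.90), PSMA7 (0.37 and 0.55) and PSMB6 (0.19 and 0.36). PSMA2 had only 15 to 25 counts with empty vector, although the bin identifier that joins it with C7orf25 and another gene had 7055 to 8378 counts in the controls of the other experiments. Its MYB call was lost in 5 alternatives, among them DESeq2 and each of empty vector 2, empty vector 3, MYB 1 and MYB 2 left out (adjusted p up to 0.0767). The PSMA7 call with MYB was lost without MYB 3 (adjusted p = 0.0598). Of 7 peptide trimming and loading genes, the lectin chaperones CALR (0.22, adjusted p = 2.17e-04) and CANX (0.22, adjusted p = 0.00255) rose with MYB, and CALR alone with NMYB (0.29, adjusted p = 1.37e-05), and none fell. These counts stand beside the same shares over all genes, and the NMYB count is near its share.

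Regulators of class I gave single calls. Of 16 transcription factor genes edgeR called 0 with MYB, with 5 at an unadjusted p below 0.05, and DESeq2 called 0 of 15. With NMYB 3 of 16 were called, where 24.9% of all genes were. IRF1 (0.51, SE 0.158, adjusted p = 0.0240) and RFXANK (0.15, adjusted p = 0.0458) rose and STAT2 fell (−0.15, adjusted p = 0.0472). The IRF1 call was lost with DESeq2 and without empty vector 1, empty vector 3 or NMYB 2 (adjusted p up to 0.118), and those of RFXANK and STAT2 in 8 of 12 alternatives each, among them the omission of empty vector 1, empty vector 3, NMYB 1 or NMYB 3. IRF1, an activator of TAP1, PSMB9 and class I promoters, was at 3.30, 4.70 and 3.50 CPM with empty vector and 4.80, 6.17 and 5.42 CPM with NMYB. Of 6 interferon gamma receptor pathway genes, the kinase gene JAK1 fell in both (−0.33 in each, adjusted p = 5.01e-05 with MYB and 6.27e-05 with NMYB), and JAK2 fell with NMYB (−0.23, adjusted p = 0.0250), a call lost without empty vector 1 or NMYB 2. IRF1 stands in this list too.

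Polycomb repressive complex 2, which silences class I genes in some tumour lines, had 0 of 11 genes higher and 3 lower with MYB, and 1 higher and 2 lower with NMYB. In either direction 3 of 11 were called in each, near the 22.3% and 24.9% over all genes. By direction, all genes gave 9.62% higher and 12.7% lower with MYB, and 12.6% and 12.4% with NMYB. All the complex genes called were accessory or core subunits with changes of at most 0.30. These were MTF2 (−0.20 and −0.23), JARID2 (−0.19 and −0.30), PHF19 (−0.20 with MYB) and EED (0.15 with NMYB). The MTF2 call with MYB was lost without empty vector 1, empty vector 3, MYB 1 or MYB 2, and with NMYB without empty vector 1. The JARID2 call with MYB was lost without empty vector 3 or MYB 2, and the EED call in 8 alternatives, among them each empty vector, NMYB 1 or NMYB 3 left out. Of 12 class II genes 3 could be tested, and 0 were called by edgeR or DESeq2 in either comparison, with 0 at an unadjusted p below 0.05.

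Class I-like genes and ligands of natural killer receptors, in 1 list, gave single calls, with 10 of 15 genes tested. Of these, 1 was called with MYB and 3 with NMYB, where 22.3% and 24.9% of all genes were. NECTIN2, a ligand of the activating receptor DNAM-1, fell with MYB (−0.21, adjusted p = 0.0294), lost without any 1 of the 6 libraries. ULBP2, a ligand of the activating receptor NKG2D, rose with NMYB (1.10, SE 0.383, adjusted p = 0.0433) from 0.229 to 0.622 CPM to 0.729 to 1.33 CPM. Only 1 of 3 empty-vector libraries reached the filter level of 0.515 CPM, so ULBP2 too entered the test through the groups where it was high. NCR3LG1, the ligand of NKp30, fell (−0.23, adjusted p = 0.00583). MICB also fell with NMYB (−0.17, adjusted p = 0.0409). The ULBP2 and MICB calls were each lost in 6 alternatives, among them DESeq2 and empty vector 1, empty vector 2 or NMYB 1 left out. Among 6 tested genes of killing and inhibition 3 fell with MYB and 4 with NMYB, and none rose. Over all genes 12.7% were called lower with MYB and 12.4% with NMYB. SERPINB9, the granzyme B inhibitor, was at 90.5 to 92.2 CPM with empty vector, 27.5 to 28.6 CPM with MYB and 29.7 to 32.5 CPM with NMYB (−1.70 and −1.54, adjusted p = 2.34e-13 and 1.58e-12). TNFRSF10B, a receptor of the death ligand TRAIL, fell by 0.50 and 0.46 and the adhesion gene ICAM1 by 0.41 and 0.30 on the log2 scale.

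Between NMYB and MYB libraries, PSMB1 (0.16, adjusted p = 0.0487) and NECTIN2 (0.31, adjusted p = 0.0338) were higher and NCR3LG1 lower (−0.35, adjusted p = 0.00888) with NMYB. The PSMB1 call was lost in 9 of 12 alternatives, the NECTIN2 call in 5 and the NCR3LG1 call without MYB 1 (adjusted p = 0.0824).

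**Figure D4:**
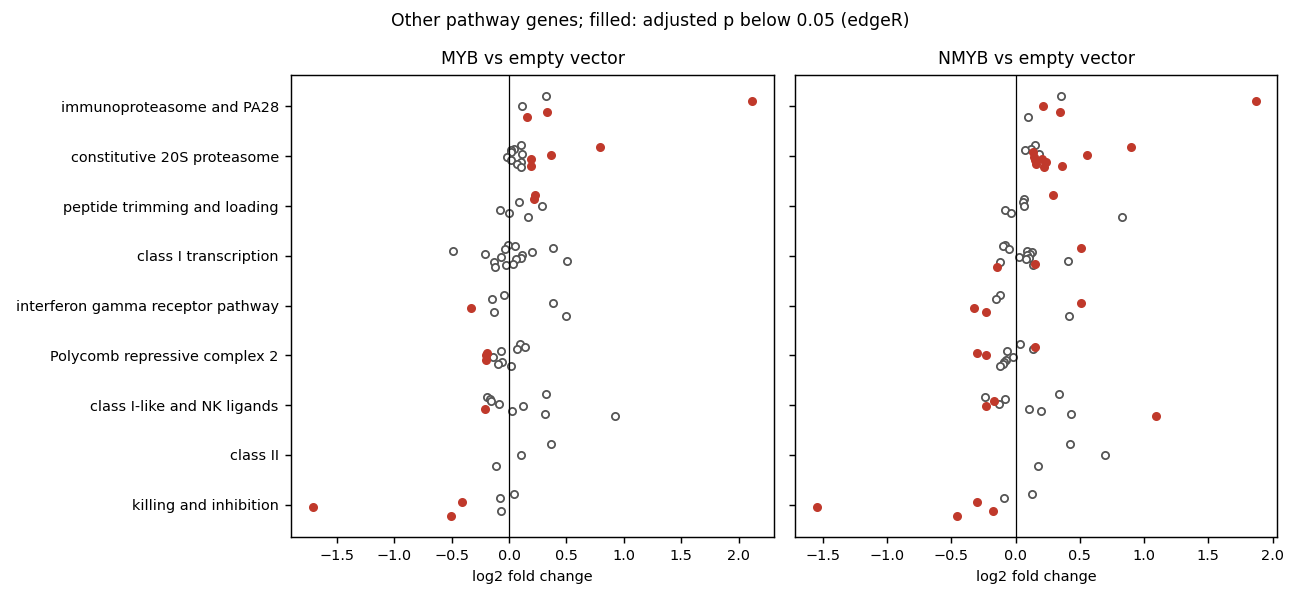
Log2 fold change over empty vector of the other pathway genes by list, for MYB (left) and NMYB (right), filled where edgeR's adjusted p was below 0.05. PSMB9 lies at 2.11 and 1.87, SERPINB9 at −1.70 and −1.54, and no 20S proteasome gene is filled below 0.

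Markers of other cells were checked beside these changes. The T and NK cell list summed to 32.2 to 33.6 CPM with empty vector, 13.6 to 15.8 CPM with MYB and 16.6 to 18.5 CPM with NMYB. CD3D carried most of it, and CD3E, CD2 and GNLY were each under 1 CPM. The monocyte list summed to 23.8 to 28.7, 32.1 to 37.3 and 36.2 to 39.5 CPM in the same order. LYZ carried it (log2 fold changes 0.46 and 0.55), with 4 of 5 markers under 1 CPM in each group. The endothelial list summed to 15.1 to 17.6, 8.16 to 9.33 and 8.35 to 9.37 CPM, with PECAM1 alone above 1 CPM, and the fibroblast list to 10.8 to 11.2, 8.77 to 9.31 and 9.19 to 9.92 CPM, with 3 of 5 under 1 CPM. The B cell list summed to 4.65 to 5.25, 3.19 to 4.29 and 4.04 to 4.79 CPM. The epithelial list summed to 61.0 to 65.7, 54.9 to 58.4 and 56.9 to 63.8 CPM. In both, 3 of 4 markers were under 1 CPM in each group. The part of these lists in the changes of TAP1, PSMB8 and the other genes was not tested. In bulk RNA, fewer cells of a kind and less RNA per cell cannot be told apart.

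Overexpression of the 34kn enhancer RNA was compared with its 3 controls on bin counts summed per gene. No class I gene was called. edgeR called 0% of 16116 genes, although 3759 had an unadjusted p below 0.05, and 0 of the 8 members tested, of which 2 had an unadjusted p below 0.05, namely B2M and TAPBP, named here after their values were seen. DESeq2 called 0 of the 5 members to which it gave an adjusted p. The median log2 fold change of the 8 was −0.16, against 0.00 over all genes tested.

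B2M was at 453, 522 and 508 CPM in 34kn controls and 549, 565 and 551 CPM with 34kn overexpression (1.12-fold, 95% interval 1.03 to 1.22, adjusted p = 0.159), and TAPBP at 54.3, 51.0 and 59.2 CPM against 46.4, 50.2 and 48.2 CPM (0.877-fold, 0.786 to 0.978, adjusted p = 0.182). In each the groups did not overlap. Without 34kn control 2 both passed (adjusted p = 0.0363 and 0.0496), as did 2982 genes in all. TAP1 was at 7.78, 5.13 and 5.42 CPM in controls, the first standing apart, and 5.32, 4.77 and 3.95 CPM with overexpression (0.761-fold, 0.591 to 0.980, adjusted p = 0.224).

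The heavy chains had wide intervals. HLA-B stood at 0.679-fold (0.389 to 1.19), HLA-C at 0.826-fold (0.613 to 1.11) and HLA-E at 0.983-fold (0.857 to 1.13). TAP2, counted together with HLA-DOB, was at 0.963-fold (0.865 to 1.07) and PSMB8 at 0.918-fold (0.503 to 1.68), with 9 to 24 bin counts per library. NLRC5 had 12, 0 and 0 bin counts in controls and 5, 3 and 5 with overexpression, and was not tested. Of the 81 other pathway genes tested edgeR called 0, with 20 at an unadjusted p below 0.05. DESeq2 called 4 of 69, namely PSMB10, PSMA1, HSPA5 and NFYB, beside 1241 of 10816 over all genes. The bin identifier of PSMB10 joins it with CTRL and another gene, and that of PSMA1 joins it with COPB1 and another gene.

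Overexpression of the 34kp enhancer RNA gave 2.35% of 16662 genes called, 0.63% higher and 1.72% lower. Of the 8 members tested 0 were called by edgeR and 0 by DESeq2, and 0 had an unadjusted p below 0.05. The median log2 fold change of the 8 was −0.13, against −0.01 over all genes tested. The share of reads of low alignment quality was 7.14% to 8.35% in 34kp controls and 4.46% to 4.64% with overexpression, and its part in these values was not tested.

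B2M was at 600, 564 and 553 CPM in controls and 534, 530 and 586 CPM with 34kp overexpression (0.957-fold, 0.871 to 1.05). TAP1 was at 7.02, 7.12 and 6.5 CPM against 6.32, 5.51 and 5.998 CPM, groups that did not overlap (0.860-fold, 0.718 to 1.03, adjusted p = 0.422). TAP2 with HLA-DOB stood at 1.11-fold (0.979 to 1.27), TAPBP at 1.03-fold (0.885 to 1.20) and HLA-E at 1.04-fold (0.884 to 1.22). HLA-C stood at 0.859-fold (0.654 to 1.13), PSMB8 at 0.871-fold (0.561 to 1.35) and HLA-B at 0.726-fold (0.408 to 1.29). The HLA-B counts were 43, 41 and 46 in controls and 47, 36 and 10 with overexpression, so 1 library set the lower mean. NLRC5 had 3, 3 and 4 bin counts in controls and 0 in each library with overexpression, where a count of 0 allows up to 0.0789 CPM, and was not tested.

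Among 82 other pathway genes tested, edgeR called 5, all lower. The endoplasmic reticulum chaperone HSPA5 fell (−0.56, adjusted p = 0.00647), as did EZH1 (−0.54, adjusted p = 0.0173), ULBP1 (−1.04, adjusted p = 0.0268), the class I-like gene MR1 (−0.53, adjusted p = 0.0439) and TNFRSF10B (−0.66, adjusted p = 0.00342). ULBP1 was at 2.87, 3.56 and 3.36 CPM in controls and 1.90, 1.58 and 1.29 CPM with overexpression. These 5 calls were each lost in 2 to 6 of 12 alternatives, with adjusted p up to 0.250. All 5 were lost with replicate number as a block and without 34kp control 2, and all but TNFRSF10B without 34kp overexpression 2. EZH1, ULBP1 and MR1 were also lost without 34kp control 1, and ULBP1 and MR1 without 34kp control 3.

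The difference between the 34kp and 34kn effects was tested itself, as an interaction over all 12 libraries. Of 17323 genes 6.36% were called, 3.53% higher and 2.83% lower for 34kp. Of the 8 members tested 0 were called by edgeR, and 0 by DESeq2 of the 6 to which it gave an adjusted p, with 1 at an unadjusted p below 0.05, namely B2M, named after its value was seen. B2M had a log2 difference of −0.22 (adjusted p = 0.145), called without 34kp overexpression 3 (−0.27, adjusted p = 0.0482). The differences were 0.09 for HLA-B, 0.06 for HLA-C and 0.08 for HLA-E. They were 0.17 for TAP1, 0.21 for TAP2 with HLA-DOB, 0.23 for TAPBP and −0.08 for PSMB8, with adjusted p of 0.289 to 0.950 over these 7. NLRC5 was not tested.

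The control groups of the enhancer RNA experiments were compared with each other as well. Of 17323 genes 37% were called between 34kp and 34kn controls, 18.9% higher and 18.2% lower in 34kp controls, beside 3 members higher and 1 lower of the 8 tested. Experiment and any batch cannot be told apart here. TAP2 with HLA-DOB was at 63.6, 56.3 and 54.9 CPM in 34kn controls and 38.8, 39.2 and 42.8 CPM in 34kp controls (0.691-fold, 0.616 to 0.774, adjusted p = 1.94e-04), called in every alternative fit. HLA-E was higher in 34kp controls (1.30-fold, 1.11 to 1.52, adjusted p = 0.0184), as were B2M (1.16-fold, 1.06 to 1.26, adjusted p = 0.0183) and PSMB8 (2.24-fold, 1.34 to 3.77, adjusted p = 0.0254).

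These 3 calls did not hold in every fit that left out 1 library. HLA-E was not called without 34kn control 3 (adjusted p = 0.0830), 34kp control 2 (0.0747) or 34kp control 3 (0.0796). B2M was not called without 34kn control 1 (0.0953) or 34kp control 1 (0.0875), nor PSMB8 without 34kn control 2 (0.0925), 34kn control 3 (0.0528) or 34kp control 1 (0.128). HLA-B had 18 to 25 bin counts in 34kn controls and 41 to 46 in 34kp controls (1.79-fold, 1.01 to 3.17, adjusted p = 0.127). HLA-C, TAP1 and TAPBP did not pass either (adjusted p = 0.179, 0.432 and 0.155). NLRC5, with 12, 0 and 0 against 3, 3 and 4 bin counts, was not tested. The erythroid markers summed to 12120 to 13083 CPM of bin counts in 34kn controls and 8190 to 8752 CPM in 34kp controls. The monocyte list summed to 2090 to 2198 and 1592 to 1747 CPM. The bin identifier of CD68 in that list joins it with EIF4A1, SENP3 and other genes, so the sum may not be one of monocyte markers. Of 3 monocyte markers tested, 2 were called higher and 1 lower in 34kp controls. The part of either list in the differences of the class I genes was not tested.

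Of 84 other pathway genes tested between the control groups 38 were called by edgeR, where 37% of all genes were, 18.9% higher and 18.2% lower. In the immunoproteasome and PA28 list 2 of 5 were higher in 34kp controls and 2 lower, led by PSMB9 (1.08, adjusted p = 0.00379), the catalytic subunit gene PSMB10 (−0.67, adjusted p = 0.00335) and PSME1 (0.25, adjusted p = 0.0173). The bin identifier of PSMB10 joins it with CTRL and another gene, so its difference may not be that of PSMB10 alone. PSMB9, counted there with an antisense gene, had 113, 86 and 42 bin counts in 34kn controls and 203, 175 and 176 in 34kp controls, and it was called in every alternative. Of 14 constitutive subunits 1 was higher and 6 lower, with PSMB5 at −0.83, PSMB6 at −0.49 and PSMA7 at −0.48. Of 16 transcription factor genes 2 were higher and 6 lower, and the largest differences were NFKB1 (−1.14), RFXANK (−0.73) and IRF2 (−0.37). The PSME1 call was lost without 34kn control 3 or 34kp control 2, and the IRF2 call without 34kn control 2 or 34kp control 2.

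The design text asks about exon usage, so single exon bins of the members were compared with the rest of their gene. With 34kn overexpression 0 of 87 member bins were called by diffSpliceDGE, where 0.795% of 216197 bins were, and 3 had an unadjusted p below 0.05. With 34kp overexpression 0 of 92 member bins were called, where 0.00862% of 220442 bins were, and 1 had an unadjusted p below 0.05. B2M, HLA-C, HLA-E, TAP1, TAP2 and TAPBP had bins to test, and HLA-B, PSMB8 and NLRC5 had none. The smallest adjusted p with 34kn belonged to TAPBP bin 004, with 14, 22 and 14 counts in controls and 8, 4 and 6 with overexpression (log2 difference from the gene −0.88, adjusted p = 0.334). B2M bin 032 (−0.65, adjusted p = 0.509) and HLA-E bin 010 (0.30, adjusted p = 0.562) followed. With 34kp every member bin had an adjusted p of 1.00.

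The genes whose log2 CPM ran most like those of B2M and TAP1 are given as a description, with no test. Over the 9 libraries of the gene table, B2M ran most like the proteasome subunit gene PSMA3 (Pearson r = 0.964), the class I and II promoter factor gene RFXAP (0.964) and the ribosomal protein gene RPS25 (0.948), among 15820 genes. TAP1 ran most like MAGEA1 (0.982), a cancer-testis antigen gene, ATP6V0E2-AS1 (0.981) and LMO4 (0.979). Over the 12 bin libraries the nearest were EPS15 (0.959), CCNI (0.958) and RTN3 (0.957) for B2M, and SMARCD3 (0.909), DAG1 (0.899) and FGD3 (0.897) for TAP1. Libraries of a group share their condition and library scaling, so such values carry the differences between groups.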

How the data were processed

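The deposited values were raw counts, per the file headers and the values. The submitters' processing notes name GRCh38 and Trimmomatic 0.93, with HISAT2 2.2.1 and featureCounts 2.0.1 for gene counts and STAR 2.7.10a for bin counts. The annotation release, strand setting, treatment of multiply aligned reads and bin counter are not given in the sources used here. Reads outside bins (29.5% to 32.8%) or of low alignment quality (4.46% to 10.5%) name no gene and stayed out of library sizes and tests.

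Bin counts were summed per gene name. The gene test was the robust quasi-likelihood F test of edgeR 4.0.16 (R 4.3.3), after TMM scaling and filterByExpr at 10 counts (two-sided, Benjamini-Hochberg adjustment over all genes tested, threshold 0.05). The 9 gene-table libraries were fitted together, each enhancer RNA experiment on its own 6 libraries, and the contrasts between those experiments on all 12. Bin usage was tested with diffSpliceDGE. Intervals of fold changes (95%) are normal, from the SE, and cover 1 gene at a time. They are narrower than the F test allows, so an interval can leave out 1 where that test's unadjusted p is above 0.05. Among the members this holds for TAP1 with 34kn (unadjusted p = 0.0549, edgeR) and for HLA-B between the control groups (0.0624). It also holds for TAP2 with MYB (0.0525) and for B2M between NMYB and MYB (0.0510), whose interval starts at 1.004. Lengths and coordinates came from GENCODE 29, promoters from RefSeq GRCh38.p14. Scripts were tested on simulated data. DESeq2 1.42.0, other scalings and filters and left-out libraries were alternatives.

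The members, gene lists and tests were chosen with earlier results of these data known. All 9 members are named in each gene comparison, and of each list up to 3 called genes with the largest change. Replicates of the first experiment differed by more than sampling noise in every pair (chi-square per degree of freedom 1.59 to 8.04). Pairs of bin libraries gave 4.85 to 51.7. A read that adds to several bins raises this value by itself, so how far those pairs exceed sampling noise cannot be told. Correlations between libraries of the same replicate number overlapped those between other libraries in each experiment. A few genes are not reported here and were left out of the lists.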

Additional observations from a re-analysis of the deposited data

Results flagged for a closer look

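No class I member differed in its response between the 34kp and 34kn experiments by the interaction test of edgeR over all 12 libraries, but 9 of 84 pathway list genes tested did, where 6.36% of all genes were called. The values are the 34kp effect minus the 34kn effect on the log2 scale. ULBP1 stood at −1.38 (adjusted p = 0.00472), with −1.04 for 34kp and 0.34 for 34kn, TNFRSF10B at −0.842 (adjusted p = 0.00158) and HSPA5 at −0.784 (adjusted p = 8.76e-04). These 3 were called in all 17 alternative fits. EZH1 stood at −0.595 (adjusted p = 0.00822) and was not called with replicate number as a block. NFYB stood at −0.681 (adjusted p = 0.0175) and IRF9, whose bin identifier joins other genes, at 0.584 (adjusted p = 0.0198), lost in 3 and 5 alternatives. NFKB1 stood at 0.48 (adjusted p = 0.0367), PSME3 at 0.317 (adjusted p = 0.0336) and PSMA7 at 0.429 (adjusted p = 0.0486), each lost in 9 to 11 of 17 alternatives, most of which left out 1 library.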

How the results depend on the processing

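The members called with MYB, 3 of 7, were 3 in every fit that left out a library. PSMB8, which entered the test only through the groups where it was high, is counted among those of MYB and NMYB. With NMYB they numbered 2 to 5 over such fits, the 5 without NMYB 2, and for NMYB against MYB 0 to 1. In the 34kn experiment they numbered 0 to 2, in the 34kp experiment 0 to 0, in the difference between these 0 to 1, and between the control groups 2 to 3. With a replicate block, that is, replicate number as a term, the members called between the control groups fell from 4 to 2, as HLA-E (adjusted p = 0.0576) and B2M (adjusted p = 0.0543) were lost, and B2M was called with NMYB (adjusted p = 0.0400). The block ended or added no other call of a member, but over all genes it moved the calls of 34kp from 105 higher and 287 lower to 14 and 57, of the difference from 34kn from 611 and 491 to 36 and 69, and of NMYB against MYB from 82 and 99 to 700 and 484. Libraries of the same number correlated in their deviations from the group means by −0.0297 to 0.0211 (34kn), −0.167 to −0.00387 (34kp) and −0.0232 to 0.0994 (first experiment). Those of different numbers did so by −0.0203 to 0.0334, −0.0559 to 0.164 and −0.122 to 0.0858 in the same order. The ranges overlapped in each experiment, although in the first the same-number range began and ended higher. Whether the numbers mark libraries handled together was not tested. Of 668 refitted fold changes of members, 34 changed sign, all of values that were not called, and 20 calls ended or appeared. Counts over all genes moved by over 1.5 times elsewhere too. The calls of 34kn, 0 in all, became 1241 with DESeq2, 1572 with no filter, 2982 without 34kn control 2 and 447 without 34kn control 1. Those of 34kp became 879, 997 and, fitted with all 12 libraries, 817, and 46 to 1175 with a library left out, those of the difference 2011, 2085 and 380 to 2747, and those of NMYB against MYB 435, 656 and, on the 6 libraries alone, 60, with 0 (without MYB 1) to 323. With no filter HLA-B and NLRC5 entered the tests. Low depth limits HLA-B, PSMB8 and NLRC5 most.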

Other observations

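In the bin files HLA-F had 13 to 41 counts per library and HLA-G 0 to 1. PSMA2 had 15 to 47 counts in the gene table, and the bin identifier that joins PSMA2, C7orf25 and another gene had 7055 to 8637 in the bin files.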
